A study of Homo sapiens with 12 samples.

Results

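The nuclear genes of respiratory complex I were followed in HCT116, a human colon carcinoma cell line. They were taken as the protein-coding genes whose symbol begins with NDUFA, NDUFB, NDUFC, NDUFS, NDUFV or NDUFAF, with pseudogenes left out. By Ensembl identifier 48 such genes were found among the 58051 genes of the deposited count tables. All 48 passed the filter on low counts, which kept 27915 genes in all.

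Complex I takes electrons from NADH, passes them to ubiquinone and pumps protons across the inner mitochondrial membrane. Its catalytic core is made of subunits encoded partly in the nucleus and partly in mitochondrial DNA, and around the core sit accessory subunits that are all encoded in the nucleus. Assembly factors help to build the complex and are not part of the finished enzyme. The 48 genes comprised 7 core subunits (among them NDUFV1, NDUFS1 and NDUFS3), 30 accessory subunits and 8 assembly factors. The remaining 3 were NDUFA4, which is now regarded as a subunit of complex IV, its paralogue NDUFA4L2, and the read-through gene NDUFC2-KCTD14.

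Cells had received a small interfering RNA (siRNA) against PFDN2 (siPFDN2), against PFDN5 (siPFDN5) or a control siRNA (siControl). Both targets are subunits of prefoldin, which helps newly made actin and tubulin to fold. At 24 h after the siRNA was added the cells were deprived of serum for 48 h, and RNA was taken before serum was given back or 90 min after. This gave 6 groups of 2 libraries. All cells carried an siRNA, all had been starved, and all were of 1 cell line. The labels do not say whether the libraries of a group came from separate cultures, so p-values measure only the spread between these libraries, which may be technical.

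Each library held between 59784425 and 136504590 gene-body counts, which take in introns, and the 48 genes held between 1856 and 2539 CPM of them before scaling. Levels are in CPM, the usual unit of counts relative to the library total, here scaled by TMM (trimmed mean of M-values). Of the siRNA targets, PFDN2 was lower in both siPFDN2 groups than in siControl (7.55 to 9.47 against 11.2 to 19.5 CPM). Before serum, PFDN5 read 41.0 and 44.2 CPM with siPFDN5 and 76.8 and 68.9 CPM with siControl. After serum the libraries labelled siPFDN5 gave 67.5 and 68.6 CPM, and those of siControl 67.9 and 74.0 CPM. The label of that group is therefore not borne out by its target, and the group is named by its label throughout. After against before serum under the siPFDN5 label, a change with serum cannot be told apart from the difference in PFDN5. In siPFDN2 before serum, replicate 2 stood apart from the other 11 libraries in how its counts followed GC content (Spearman's rho across genes 0.688, against -0.280 to 0.133). The 5 epithelial markers lay between 64.7 and 1139 CPM, and the 3 leukocyte markers at 0.143 CPM or less. Of the fibroblast markers COL1A1 reached 15.7 CPM, while COL1A2 and DCN stayed at 0.0702 CPM or less. The 3 muscle markers stayed at 0.844 CPM or less.

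The complex I genes stood highest in the libraries labelled siPFDN5 after serum. In 37 of 48 genes both of these libraries lay above all 10 others, an order found in 11.9% of all genes tested. Against siControl after serum 45 of 48 were higher in both libraries (30.6% of all genes), and against siPFDN5 before serum 43 of 48 (36.8%). The exceptions against siControl after serum were NDUFA4L2, NDUFAF2 and NDUFAF5. In siControl itself both after-serum libraries lay above both before-serum libraries in 6 of 48 genes (23.3% of all genes).

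**Figure D1:**
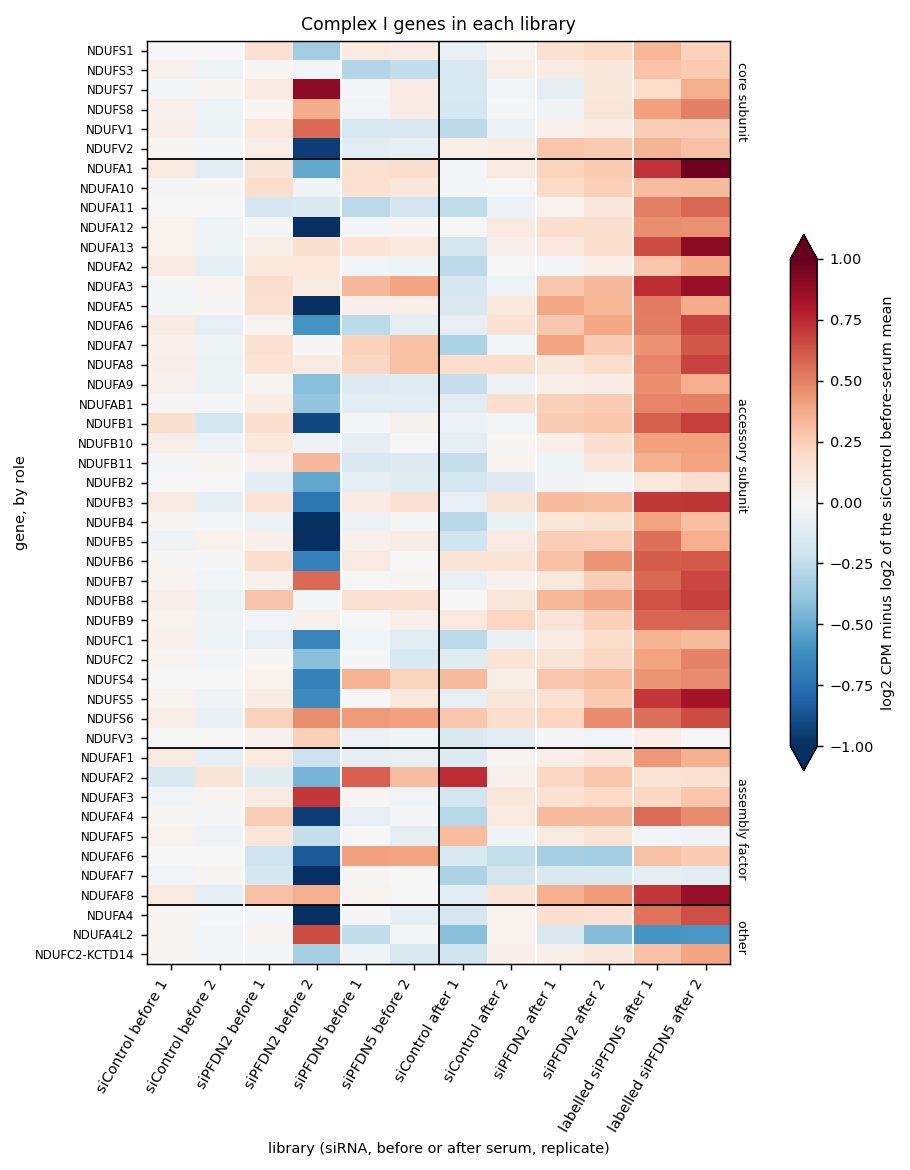
Level of 47 of the 48 genes (rows, by role) in each of the 12 libraries (columns) as log2 CPM minus log2 of the siControl before-serum mean, with the colour scale ending at -1 and 1. The 2 columns labelled siPFDN5 after are the reddest, and siPFDN2 before serum replicate 2 departs in both directions.

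In siPFDN5, 13 of the 48 genes passed edgeR's quasi-likelihood test after against before serum (Benjamini-Hochberg adjusted p under 0.05 over all genes), and all 13 were higher. Among all genes tested 5.72% were called higher in this comparison. The 13 were 11 of 30 accessory subunits, 1 of 7 core subunits and 1 of 8 assembly factors. The 3 largest changes among them were in NDUFAF8, an assembly factor, NDUFA6, an accessory subunit of the matrix arm, and NDUFA11, an accessory subunit in the membrane.

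The promoter windows of these 3 genes are shown with that of NDUFV3, the accessory subunit with the smallest change in this comparison. Sequences are from RefSeq (GRCh38.p14), cover 250 bases before to 50 bases after an annotated start, and are written 5′ to 3′ on the gene's strand. Capitals mark matches, on either strand, to 5 motifs. They were the NRF1 palindrome, the ETS motif CCGGAAGT, the YY1 motif AAGATGGC, the SP1 motif GGGCGG and the TATA box, TATAAA.
NDUFAF8, chr17:81239061-81239360, plus strand: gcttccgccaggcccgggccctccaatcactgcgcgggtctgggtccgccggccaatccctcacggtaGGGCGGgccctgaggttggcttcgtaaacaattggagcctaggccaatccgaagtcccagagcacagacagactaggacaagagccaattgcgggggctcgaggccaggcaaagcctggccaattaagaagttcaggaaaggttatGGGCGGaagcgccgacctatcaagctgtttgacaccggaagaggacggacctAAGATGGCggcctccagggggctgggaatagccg
NDUFA6, chr22:42090723-42091022, minus strand: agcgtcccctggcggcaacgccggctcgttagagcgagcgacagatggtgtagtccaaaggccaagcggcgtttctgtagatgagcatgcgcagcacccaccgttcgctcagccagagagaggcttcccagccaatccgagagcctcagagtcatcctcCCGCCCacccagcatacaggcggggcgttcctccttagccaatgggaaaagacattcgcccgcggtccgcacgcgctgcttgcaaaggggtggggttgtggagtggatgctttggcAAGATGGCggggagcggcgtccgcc
NDUFA11, chr19:5903741-5904040, minus strand: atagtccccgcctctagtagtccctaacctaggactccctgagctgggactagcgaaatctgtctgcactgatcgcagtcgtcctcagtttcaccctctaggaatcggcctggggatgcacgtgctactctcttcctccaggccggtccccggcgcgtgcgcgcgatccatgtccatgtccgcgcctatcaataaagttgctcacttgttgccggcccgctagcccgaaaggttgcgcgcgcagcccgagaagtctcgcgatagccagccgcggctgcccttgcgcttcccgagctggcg
NDUFV3, chr21:42893059-42893358, plus strand: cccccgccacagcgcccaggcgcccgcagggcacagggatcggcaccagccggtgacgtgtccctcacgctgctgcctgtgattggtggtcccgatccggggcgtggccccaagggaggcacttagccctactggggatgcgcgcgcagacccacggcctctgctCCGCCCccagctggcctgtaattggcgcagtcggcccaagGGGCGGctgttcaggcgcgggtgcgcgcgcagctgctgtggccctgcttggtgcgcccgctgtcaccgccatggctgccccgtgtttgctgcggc

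The NDUFAF8 window held the YY1 motif and a pair of SP1 matches, and the NDUFA6 window held the YY1 motif and 1 SP1 match. The NDUFA11 window held none of the 5 motifs, and the NDUFV3 window held a pair of SP1 matches. NDUFAF8 has 3 annotated windows, of which the shown one is the first along the chromosome. Windows were found for 40 of the 48 genes, 52 windows in all, and in none of them did matches to different motifs overlap. The YY1 motif occurred in 17.3% of the 52 windows and in 2.89% of all 35116 windows of the same length. The SP1 motif occurred in 65.4% against 45.0%, the NRF1 motif in 5.77% against 1.24%, the ETS motif in 3.85% against 4.14%, and the TATA box in 5.77% against 11.5%. Windows of the same gene can overlap, so 1 site can count in several windows. By gene the YY1 motif was present for 8 of 40. It was present for 3 of the 11 genes called in siPFDN5 that had a window, and for 5 of the 29 others. The median log2 fold change in that comparison was 0.48 for the 8 genes with the motif and 0.42 for the 32 without it.

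NDUFAF8 (ENSG00000224877; chromosome 17, 81239239 to 81241281, GRCh38) overlaps no other annotated gene. With siPFDN5 its level was 19.6 and 19.2 CPM before serum, and the after-serum libraries of that label gave 31.3 and 35.1 CPM. With siControl it was 20.5 and 17.9 CPM before and 17.9 and 21.1 CPM after. With siPFDN2 it was 23.5 and 24.7 CPM before and 24.7 and 25.8 CPM after. Only the libraries labelled siPFDN5 after serum exceeded 30 CPM, and the siControl groups overlapped. The log2 fold change in siPFDN5 was 0.77 (SE 0.15, adjusted p = 0.0124).

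NDUFA6 (ENSG00000184983; chromosome 22, 42085525 to 42090955) rose from 31.1 and 34.8 CPM to 53.0 and 59.4 CPM between the siPFDN5 groups. With siPFDN2 its level was 38.2 and 24.6 CPM before, then 44.7 and 48.7 CPM. With siControl it was 39.2 and 35.2 CPM before, then 35.1 and 41.2 CPM. The groups before and after serum did not overlap under the siPFDN2 and siPFDN5 labels, and they did in siControl. The log2 fold change was 0.77 in siPFDN5 (SE 0.20, adjusted p = 0.0335) and 0.58 in siPFDN2 (SE 0.20, adjusted p = 0.112).

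NDUFA11 (ENSG00000174886; chromosome 19, 5891276 to 5904006) gave 39.3 and 41.5 CPM before serum with siPFDN5, and 67.2 and 70.5 CPM after serum under the same label. The siControl values were 47.48 and 47.46 CPM before, then 39.8 and 45.5 CPM. The siPFDN2 values were 42.2 and 42.8 CPM before, then 48.7 and 51.3 CPM. The siPFDN5 before-serum libraries were thus lower than those of siControl, and the after-serum ones higher. The log2 fold change in siPFDN5 was 0.77 (SE 0.13, adjusted p = 0.00753).

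**Figure D2:**
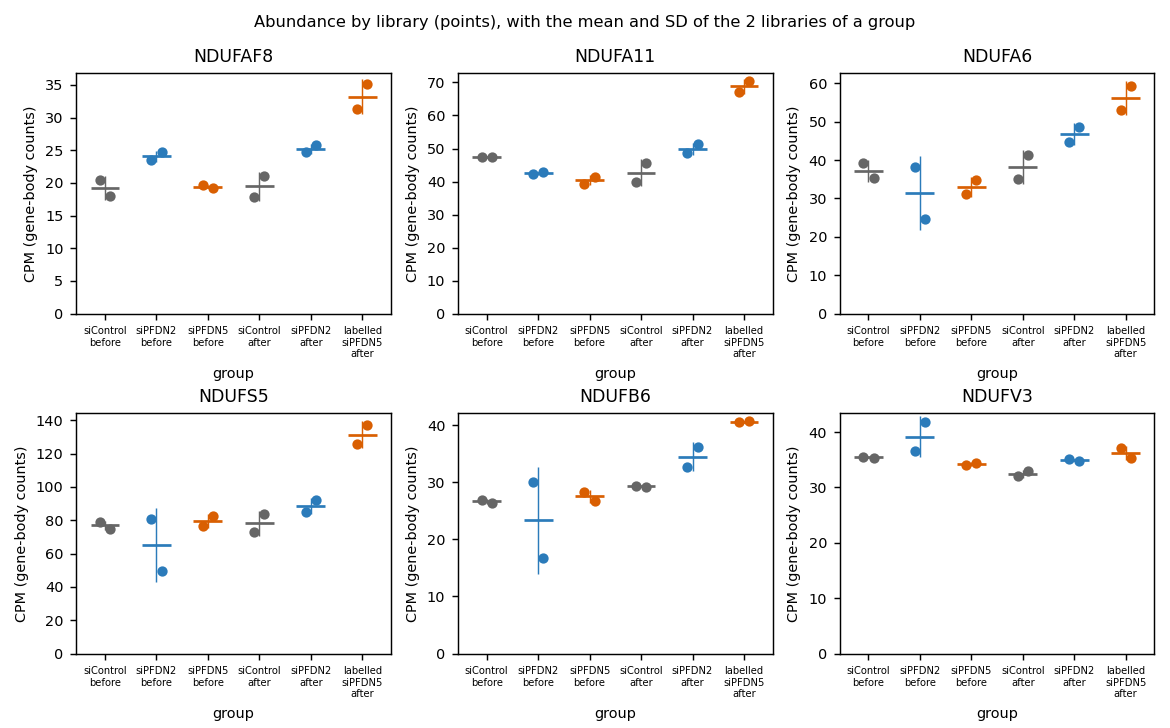
Gene-body CPM of 6 genes by group, with a point for each library, a horizontal bar for the group mean and a vertical bar for the SD of its 2 libraries. For NDUFAF8, NDUFA11, NDUFA6, NDUFS5 and NDUFB6 the libraries labelled siPFDN5 after serum lie above all others, and for NDUFV3 they do not.

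The other 10 genes called in siPFDN5 had log2 fold changes between 0.45 and 0.72. NDUFS5, an accessory subunit of the intermembrane space side, went from 76.8 and 82.8 CPM to 126 and 137 CPM (0.72, SE 0.20, adjusted p = 0.0436). NDUFA1, an X-linked accessory subunit, changed by 0.69 and NDUFA13, also known as GRIM-19, by 0.66. NDUFB7, NDUFAB1, NDUFB9, NDUFB11, NDUFB8 and NDUFB10 changed by 0.61, 0.61, 0.56, 0.52, 0.51 and 0.45. NDUFAB1 is the mitochondrial acyl carrier protein, and most of the NDUFB genes encode accessory subunits of the membrane arm. NDUFS3, which belongs to the core of the peripheral arm, changed by 0.54 (SE 0.13, adjusted p = 0.0266).

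Over all 48 genes the median log2 fold change in siPFDN5 after against before serum was 0.43, against -0.03 over all genes. It was 0.48 in the 30 accessory subunits, all of which were positive, 0.40 in the 7 core subunits, also all positive, and 0.13 in the 8 assembly factors, of which 5 were positive. The 4 genes below 0 were NDUFA4L2 (-0.46), NDUFAF2 (-0.32), NDUFAF6 (-0.13) and NDUFAF7 (-0.11), and none of them passed the test. The core subunit NDUFS1 stood at 0.20 and did not pass it either. Counts per library cannot tell fewer cells or less RNA per cell from a lower level per cell.

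The number of calls rested on few libraries and on the scaling. With library totals in place of TMM it was 2. That scaling moved the median over all genes from -0.03 to -0.18 and the median of the 48 to 0.28, with 41 positive. The number of calls fell to 0 when any 1 of the 4 siPFDN5 libraries was left out, and it also fell without any 1 of 6 others. It rose without either siPFDN2 before-serum library, where the spread estimated over all genes was lower. The 13 genes had positive log2 fold changes in all 12 of these fits. They were chosen as higher in the fit of all libraries, and these fits share most of them. The sign therefore gives no further support.

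In siControl, serum changed none of the 48 genes past the threshold (edgeR's quasi-likelihood test), and 0 had an unadjusted p under 0.05. DESeq2 also called 0. Among all genes 2.87% were called in this comparison. The median log2 fold change of the 48 was -0.04, with 18 positive. The values with the smallest p were 0.43 for NDUFAF2 (SE 0.23, adjusted p = 0.501) and 0.22 for NDUFS6 (SE 0.15, adjusted p = 0.648). On the negative side they were -0.15 for NDUFA11 and -0.24 for NDUFAF7 (adjusted p = 0.756 and 0.778). NDUFAF2, an assembly factor with a long gene body, stood at 20.4 and 12.6 CPM in the siControl after-serum libraries, so that the replicates differed more than the groups did.

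In siPFDN2, 37 of 48 genes were positive after against before serum, with a median of 0.24, and none was called by edgeR's quasi-likelihood test or by DESeq2. Of the 48, 13 had an unadjusted p under 0.05, and 3.26% of all genes were called. The smallest p-values were those of NDUFA6, given above, and of NDUFS4, an accessory subunit of the peripheral arm (0.56, SE 0.20, adjusted p = 0.121). NDUFA4L2 stood at -0.67 (SE 0.28, adjusted p = 0.152) and the core subunit NDUFS7 at -0.53 (SE 0.22, adjusted p = 0.155). This comparison contains siPFDN2 before serum replicate 2. Without that library the median was 0.10, with 38 of 48 positive, and with the GC trend of each library removed it was 0.33, with 43 positive.

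In that library the members departed from its replicate in the order of their base composition. In siPFDN2 before serum NDUFA5 stood at 44.2 CPM in replicate 1 and 12.9 CPM in replicate 2, and NDUFA4 at 49.5 and 17.3 CPM. NDUFS7 went the other way, with 16.8 and 29.2 CPM, and so did NDUFAF3, with 22.2 and 34.3 CPM. Across the 48 genes the log2 ratio of replicate 2 over replicate 1 ran from -1.77 to 0.80, and its correlation with GC content was r = 0.84 (Spearman's rho 0.84). In the other 5 groups r lay between -0.11 and 0.56. The genes of a group share their library, so these correlations describe the libraries. The SD of the replicates' log2 difference over 47 of the genes was 0.569 in this group and between 0.070 and 0.185 in the others.

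**Figure D3:**
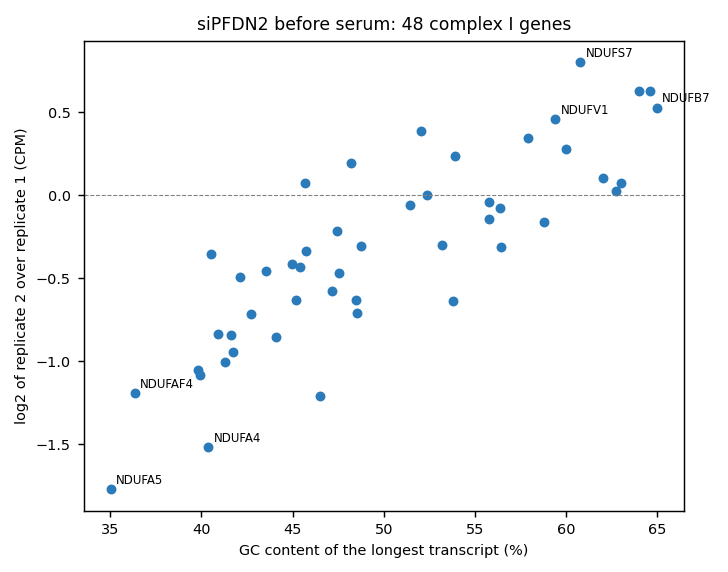
Each point is 1 of the 48 genes in siPFDN2 before serum, with the GC content of its longest transcript (%) on the horizontal axis and the log2 ratio of its CPM in replicate 2 over replicate 1 on the vertical axis. Points rise from NDUFA5 at -1.77 to NDUFS7 at 0.80.

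With the 3 siRNAs averaged, 8 of 48 genes were called higher after serum and none lower, against 7.60% of all genes called higher. NDUFA6 had the largest change (0.46, SE 0.11, adjusted p = 0.0227), followed by NDUFB6 (0.42, SE 0.13, adjusted p = 0.0482) and NDUFS5 (0.39, SE 0.12, adjusted p = 0.0444). NDUFB6, an accessory subunit of the membrane arm, went from 26.9 and 26.4 to 29.3 and 29.2 CPM with siControl. With siPFDN2 it went from 30.0 and 16.7 to 32.6 and 36.2 CPM. With siPFDN5 it went from 28.4 and 26.7 to 40.5 and 40.7 CPM. In each siRNA both after-serum libraries lay above both before-serum ones. Of the 8 genes 7 were also among the 13 called in siPFDN5, whose libraries enter the average. All 8 calls were lost when 1 of 9 libraries was left out. Without replicate 2 of siPFDN2 before serum, the library that stood apart in GC content, the 8 changes lay between 0.27 and 0.37. The largest changes above were thus smaller without that library. Scaled by library totals, 1 gene was called, lower.

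Before serum, neither knockdown had a called member against siControl. For siPFDN2 the median log2 fold change was -0.11, with 20 of 48 positive, 7 genes had an unadjusted p under 0.05 and DESeq2 called 0, while 0% of all genes were called. The core subunit NDUFS7 stood at 0.55, and the assembly factors NDUFAF6 and NDUFAF7 at -0.49 and -0.53 (adjusted p = 0.442 for each in edgeR's quasi-likelihood test). Without replicate 2 of siPFDN2 before serum the median of the 48 was 0.07. For siPFDN5 the median was 0.01, with 25 of 48 positive and 3 genes with an unadjusted p under 0.05, DESeq2 called 0, and 0.00716% of all genes were called. NDUFS6 read 27.2 and 26.8 CPM with siPFDN5, against 21.1 and 19.3 CPM (0.42, SE 0.15, adjusted p = 0.309). NDUFA3 stood at 24.1 and 25.3 against 18.9 and 19.5 CPM (0.36, SE 0.13, adjusted p = 0.325). NDUFS3 and NDUFA11 were at -0.27 and -0.23 (adjusted p = 0.437 and 0.510). Both siPFDN5 libraries lay above both siControl libraries in 15 of 48 genes (32.9% of all genes).

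After serum, the members were higher in the libraries labelled siPFDN5 than in siControl on average, and no single gene passed the test over all genes. The median log2 fold change was 0.46, against -0.04 over all genes, and 45 of 48 were positive. Of the 48, 29 had an unadjusted p under 0.05 and the lowest adjusted p was 0.0672, while 0.00358% of all genes were called. NDUFA3, an accessory subunit of the membrane arm, stood at 32.0 and 35.2 CPM against 17.1 and 18.7 CPM (0.91, SE 0.13, adjusted p = 0.0672). NDUFA13 stood at 80.9 and 95.9 against 45.9 and 53.4 CPM (0.83, SE 0.14, adjusted p = 0.0672). In both genes the groups did not overlap. Both were chosen for the smallest p among the positive changes, so a wide gap between their groups follows from that choice. NDUFA4L2 stood at 0.477 and 0.480 against 0.537 and 0.735 CPM (-0.42, SE 0.28, adjusted p = 0.413), and NDUFAF2 at -0.28 (SE 0.23, adjusted p = 0.493).

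The count in this comparison moved with siPFDN2 before serum, which belongs to neither group but shares the estimate of the spread. With the GC trend removed, 32 of 48 genes were called, all higher (6.81% of all genes were called higher). Without replicate 2 of that group 41 of 48 were called, all higher, against 13.8% of all genes, and without replicate 1 also 41. Those not called without replicate 2 included NDUFV3, NDUFA4L2 and the assembly factors NDUFAF2, NDUFAF3, NDUFAF5 and NDUFAF7. The median of the 48 was 0.46 with the GC trend removed and without replicate 2. Leaving out siControl after serum replicate 2 gave 8 calls, and leaving out any 1 of the other 9 libraries gave 0. DESeq2 on all 12 libraries called 15, again all higher (2.94% of all genes).

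For siPFDN2 after serum 43 of 48 genes were positive against siControl, with a median of 0.19 against -0.05 over all genes, and edgeR's quasi-likelihood test and DESeq2 called 0. Only 3 genes had an unadjusted p under 0.05, and 0% of all genes were called. In 35 of 48 genes both siPFDN2 libraries lay above both siControl libraries (22.5% of all genes). NDUFA7, an accessory subunit of the peripheral arm, stood at 22.4 and 20.3 against 13.7 and 16.8 CPM (0.49, SE 0.15, adjusted p = 0.772). NDUFA3 stood at 23.1 and 24.0 against 17.1 and 18.7 CPM (0.40, SE 0.13, adjusted p = 0.772). NDUFAF2 and NDUFAF6 were at -0.19 and -0.14 (adjusted p = 0.862 and 0.863). This comparison shares its siControl libraries with the one above. With library totals for scaling its median was 0.07, with 36 positive.

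**Figure D4:**
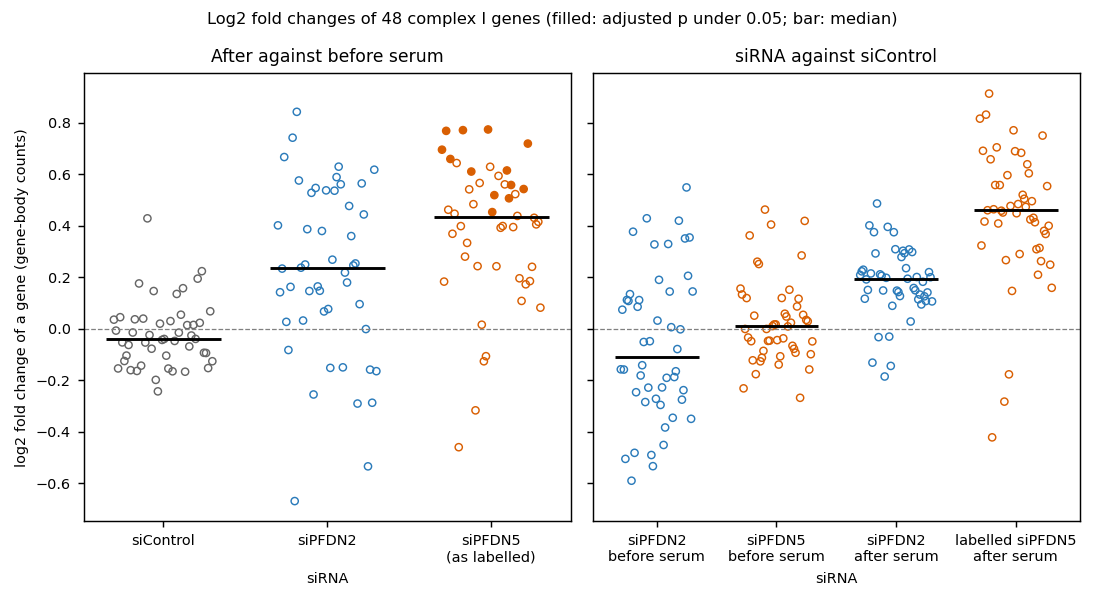
Log2 fold change of each of the 48 genes after against before serum within each siRNA (left) and of the groups labelled siPFDN2 and siPFDN5 against siControl (right). Filled points passed an adjusted p of 0.05, open points did not, and the bars are medians, which are -0.04, 0.24 and 0.43 on the left and -0.11, 0.01, 0.19 and 0.46 on the right.

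Whether the change after against before serum differed between siRNAs was tested directly. In the siPFDN5 groups PFDN5 itself stood at 41.0 and 44.2 CPM before serum and 67.5 and 68.6 CPM after. A difference for siPFDN5 thus cannot be told apart from that change. For siPFDN5 minus siControl the median of the 48 differences was 0.49, against -0.03 over all genes, with 43 positive and 21 at an unadjusted p under 0.05. None was called by edgeR's quasi-likelihood test (0% of all genes), and DESeq2 called 4 (1.36% of all genes higher). NDUFA11 and NDUFAF8 had the smallest p-values among the positive differences, at 0.92 (SE 0.18, adjusted p = 0.0960) and 0.75 (SE 0.21, adjusted p = 0.1004). NDUFAF2 and NDUFA4L2 stood at -0.75 and -0.30 (adjusted p = 0.213 and 0.716). Without either siPFDN2 before-serum library 34 of 48 were called, all positive (12.2% of all genes without replicate 2), and with the GC trend removed NDUFA9 and NDUFB2 were (2.69%). For siPFDN2 minus siControl the median was 0.30, with 37 positive, 2 had an unadjusted p under 0.05, and none was called by edgeR's quasi-likelihood test or DESeq2 (0% of all genes). NDUFC1 and NDUFB4, both accessory subunits of the membrane arm, stood at 0.64 and 0.75, and NDUFS7 at -0.44 (adjusted p between 0.582 and 0.585). Without replicate 2 of siPFDN2 before serum that median was 0.12.

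Gene-body counts contain introns, which mark transcripts not yet spliced along with other RNA from the locus. Intronic counts, taken as gene-body minus exon counts, held a median of 1.97% and 1.90% of the members' gene-body counts in the libraries labelled siPFDN5 after serum, against 4.82% and 4.30% in siPFDN5 before serum. Summed over the 48 genes, the intronic share was 8.55% and 8.46% against 14.4% and 13.5%. Summed over all genes, it was 17.2% and 14.8% against 22.8% and 25.9%. The share was highest in NDUFAF6 (86.9% on average), NDUFAF7 (45.4%) and NDUFAF2 (41.2%), and lowest in NDUFB11 (0.336%). NDUFAF6 spans several other genes, whose fragments are counted for it too. Across the 48 genes the change in siPFDN5 was lower where the intronic share was higher (r = -0.61 with gene-body counts, -0.22 with exon counts). It was higher in genes with more exon counts per kb (r = 0.68 and 0.63) and with GC content r was 0.07 and -0.12. In the same order, Spearman's rho was -0.54 and -0.27, 0.54 and 0.46, and 0.12 and -0.03. These points share their libraries and are a description.

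Set on 1 scale, CPM of the gene-body total, exon and intronic counts of the members moved apart between the siPFDN5 groups. Exon counts were higher after serum in 47 of 48 genes, with a median log2 ratio of 0.50. Intronic counts were lower in 42 of 48, with a median of -0.55. In 41 genes exon counts were higher and intronic counts lower. The share of all genes that moved this way was not counted. Over all genes the intronic share fell as well, from 22.8% and 25.9% to 17.2% and 14.8%. These counts therefore cannot be read as particular to the 48 genes. Intronic counts of NDUFAF2 went from 10.9 and 7.88 to 3.496 and 3.29 CPM. Those of NDUFS1 went from 3.20 and 3.09 to 1.28 and 1.02 CPM. The 6 genes with a higher intronic level were NDUFAF3, NDUFAF8, NDUFC1, NDUFC2-KCTD14, NDUFS3 and NDUFS8, of which NDUFS3 went from 24.7 and 23.7 to 33.8 and 31.9 CPM.

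**Figure D5:**
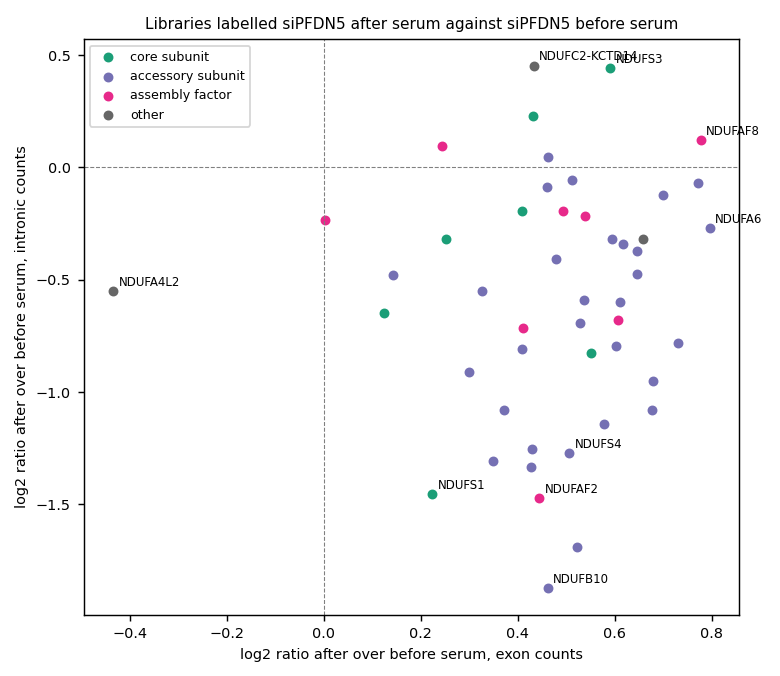
For each of the 48 genes, the log2 ratio of the mean of the libraries labelled siPFDN5 after serum over the mean of siPFDN5 before serum, for exon counts (horizontal) and intronic counts (vertical), both in CPM of the gene-body total and coloured by role. Most points lie right of 0 and below it, and the intronic share of all genes fell between these groups as well.

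Scaled to the intronic counts of all genes, which fell as a share of the library, the same 48 genes had a median intronic log2 fold change of 0.14 with 28 positive, so the direction of the intronic values depends on the scale. On this scale edgeR's quasi-likelihood test called 4 of 48 in siPFDN5, 3 higher (13.3% of all 19731 genes tested) and, lower, NDUFS1 (14.5% of all genes; -0.77, SE 0.22, adjusted p = 0.0187). The 3 higher were NDUFC2-KCTD14 (1.14), NDUFS3 (1.13) and NDUFC1 (0.73). With the 3 siRNAs averaged, 4 were called higher (14.2% of all genes) and 5 lower (15.1%). NDUFB10 fell by 1.31 on the log2 scale (SE 0.26, adjusted p = 0.00107), with intronic counts between 0.098 and 0.348 CPM after serum and between 0.365 and 0.976 before it. NDUFB1, NDUFS1 and NDUFB4 were also called lower, with changes of -0.71, -0.60 and -0.50. NDUFA4, NDUFC2-KCTD14, NDUFS3 and NDUFB6 were called higher, by 0.69, 0.55, 0.45 and 0.38.

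With exon counts alone, 3 of 48 genes were called in siPFDN5 after against before serum, all higher (2.72% of all genes). They were NDUFAF8 (0.65, SE 0.14, adjusted p = 0.0309), NDUFA11 (0.64, SE 0.12, adjusted p = 0.0167) and NDUFA13 (0.55, SE 0.13, adjusted p = 0.0475). The median was 0.37 with 45 positive. NDUFAF2 changed sign between the tables, at -0.32 with gene-body and 0.32 with exon counts, and was called with neither.

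Counting ignored the strand, and 29 of the 48 genes overlap another annotated gene, so part of their counts may come from it. Of the 19 that overlap none, all 19 were positive in siPFDN5 after against before serum, 5 were called, and 15 had both libraries labelled siPFDN5 after serum above all others. In the 29 that overlap a gene these numbers were 25, 8 and 22. The 5 were NDUFAF8, NDUFS5, NDUFAB1, NDUFB7 and NDUFB10. Pseudogenes named after the gene are annotated for 19 of the 48, among them NDUFS5 with 6 and NDUFA5 and NDUFB4 with 12 each, so counts of these genes are uncertain where the copies are nearly identical. NDUFC2-KCTD14 shares exons with NDUFC2, and fragments there were counted for both.

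Levels are compared between genes only per length, as exon CPM per kb of merged exons, averaged over the 12 libraries. NDUFS5 was highest at 191 CPM per kb (110 to 290 over the libraries), followed by NDUFA1 at 72.5 and NDUFB10 at 66.5. NDUFA4L2 was lowest at 0.232 (0.146 to 0.376), below the assembly factors NDUFAF5 at 1.499 and NDUFAF6 at 1.98. The median was 17.6. The ranges of NDUFA1 (44.2 to 116) and NDUFB10 (60.2 to 79.4) overlap, so their order is not settled by these libraries. Merged exons include long and rarely used ones, which lowers the value of genes that have them.

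The deposited transcript estimates gave the isoforms. One transcript held over 80% of the gene's estimate in 21 of 48 genes and under 50% in 11, and the leading transcript was annotated as protein-coding in 45. NDUFA11-201 held between 77.3% and 87.5% of NDUFA11 across the libraries. NDUFV3 was divided between NDUFV3-202 (59.0% on average) and NDUFV3-201 (36.2%). In NDUFAF8 the transcript NDUFAF8-205 held 53.3% to 63.8% in 11 libraries and 11.8% in siPFDN2 before serum replicate 2, where NDUFAF8-201 held 78.1%. The estimates summed per gene came to a median of 102% of the exon counts, and to under 90% in 8 genes. They came to 0.903% in NDUFC2-KCTD14, 2.31% in NDUFA6 and 16.5% in NDUFA3, so they say little of these 3 genes.

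The subunits encoded in mitochondrial DNA did not follow the nuclear ones. All 7 MT-ND genes were lower in the libraries labelled siPFDN5 after serum than in siControl after serum, with a median log2 fold change of -1.37, and none was called. MT-ND1 stood at 27.2 and 32.3 CPM against 63.3 and 90.1 CPM, and MT-ND4 at 72.4 and 103 CPM against 219 and 332 CPM. Neither pair of groups overlapped. Against siPFDN5 before serum the median was -1.09, and MT-ND3 was called lower (-0.95, SE 0.26, adjusted p = 0.0398 in edgeR's quasi-likelihood test). In siControl MT-ND3 was called higher after serum (1.22, SE 0.26, adjusted p = 0.0299), from 24.49 and 24.54 CPM to 59.3 and 55.1 CPM. It was also called higher in siPFDN2 (1.20, SE 0.26, adjusted p = 0.0340) and on average over the siRNAs (0.49, SE 0.15, adjusted p = 0.0495), the last not with exon counts. Replicates differed widely for several of these genes, as in MT-ND5, with 145 and 415 CPM in siControl after serum.

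Nuclear genes of the other oxidative phosphorylation complexes are given beside the 48 for the same comparison in siPFDN5. Called higher were 4 of 9 genes of complex III (UQCRH, UQCRQ, CYC1 and UQCRFS1), 3 of 11 of complex IV (COX5B, COX8A and COX6A1) and 3 of 15 of ATP synthase (ATP5MF, ATP5F1B and ATP5MC1). No gene of these lists was called lower, and with exon counts none was called. All 9, all 11 and all 15 were positive, with medians of 0.54, 0.50 and 0.52. Among all 27915 genes tested with gene-body counts, 5.72% were called higher and 13399 were positive, with a median of -0.03. Of the 8 genes of complex II 6 were positive with a median of 0.17 and none was called, and of 11 complex I assembly genes without an NDUF symbol 9 were positive with a median of 0.34 and none was called. Among 10 regulators of respiratory genes MYC was called higher (0.86, SE 0.18, adjusted p = 0.0168) and PPARGC1B, a coactivator, lower (-0.82, SE 0.19, adjusted p = 0.0256). The epithelial keratins KRT8 and KRT18 were called higher in the same comparison, and their part in the result was not tested. With exon counts MYC was called, and PPARGC1B, KRT8 and KRT18 were not. MYC also stood higher after serum in siControl (168 and 185, then 225 and 299 CPM) and in siPFDN2 (175 and 235, then 279 and 256 CPM). Its rise was thus not particular to the siPFDN5 label.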

How the data were processed

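RNA was sequenced from 12 libraries of HCT116 cells, in 6 groups of 2 read from the sample titles. The authors deposited tables of fragment counts per gene over gene bodies and over exons, made with featureCounts 1.5.2 on Ensembl annotation of GRCh38 without strand, with fragments over several genes counted for each, per the file headers. HISAT2 and kallisto are named in the submitters' processing notes without a role. The deposited files per sample are named TPM but hold estimated counts (expected counts) per transcript, which were summed per gene and rounded where tested. Each count table also has value columns that match no sample (6 in number), which were not used.

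Genes were kept by filterByExpr, scaled by TMM and tested with edgeR 4.0.16 (R 4.3.3) in 1 model of the 6 group means, two-sided, with a threshold of 0.05 on p-values adjusted over all genes tested (Benjamini-Hochberg). Intronic counts were gene-body minus exon counts. The SE is the size of the fold change on the log2 scale divided by the root of F. The edgeR fit was tested on simulated data whose spread between libraries was set lower than in these data. That test does not give the error rate here. Names, GC content of the longest transcript and positions are from GENCODE 29. DESeq2 1.42.0 and other alternatives are given under the closing section. No protein sequences were used here, and no promoter was shown for 8 genes without an entry.

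The members and all gene lists were chosen with earlier results of these data known. Genes given in every library were, per comparison, up to 3 called genes per direction with the largest log2 fold change and a mean log2 CPM of at least 3, or, where none was called, up to 2 per direction with the smallest p. Libraries held at least 59784425 gene-body counts, and the 2 libraries per group limit the precision. The values of 1 of the 48 genes are left out and not reported here.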

Additional observations from a re-analysis of the deposited data

Results flagged for a closer look

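For 4 of the 48 genes the change of intronic counts after against before serum differed between siPFDN5 and siControl by a test of the difference. Under the siPFDN5 label that change cannot be told apart from the higher PFDN5 level after serum. The test was edgeR's quasi-likelihood test on intronic counts, scaled to the intronic counts of all 19731 genes tested, of which 12.5% were called. The differences on the log2 scale were -1.55 for NDUFAF2 (SE 0.45, adjusted p = 0.0382), -1.36 for NDUFS4 (SE 0.40, adjusted p = 0.0407), 1.22 for NDUFS3 (SE 0.37, adjusted p = 0.0430) and 1.22 for NDUFC2-KCTD14 (SE 0.38, adjusted p = 0.0482). With the replicate number in the model (replicate block), none of the 4 passed the same test (adjusted p between 0.0560 and 0.0613). NDUFS3 and NDUFC2-KCTD14 also did not with the GC trend removed (0.0598 and 0.0741) or library size only (0.0761 and 0.104). DESeq2 and the fit with no filter on low counts called all 4. NDUFAF2, NDUFS3 and NDUFC2-KCTD14 overlap other annotated genes, so part of their intronic counts may come from those. In siControl after serum the intronic CPM of NDUFAF2 was 13.7 in replicate 1 and 4.66 in replicate 2. That of NDUFS4 was 18.4 and 6.95, so the replicates of that group lay far apart. Without replicate 1 of that group the differences were -0.90, -0.81, 0.92 and 0.89 in the same order of genes, with adjusted p between 0.161 and 0.217. All 4 calls were kept without siControl after serum replicate 2 and without either siPFDN2 before-serum library, and all 4 were lost without any 1 of the other 8 libraries.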

How the results depend on the processing

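Counts of the 48 genes called, where they moved by over 1.5 times, are given by setting, and the cause was not tested. For siPFDN5 after against before serum (13), library size only gave 2, exon counts 3, the GC trend removed 28, the replicate block 8, the block with the GC trend removed 21, and sums of transcript estimates 4. For the average over the siRNAs (8) the same settings gave 1 (lower), 3, 24, 4, 20 and 3, and no filter on low counts gave 13. For the libraries labelled siPFDN5 after serum against siControl (0), DESeq2 gave 15, no filter 12, the GC trend removed 32 and the block with the GC trend removed 20. For the difference siPFDN5 minus siControl (0), DESeq2 gave 4, no filter 1 and the GC trend removed 2. For siPFDN2 after against before serum (0), no filter gave 7. In intronic counts averaged over the siRNAs (9), library size only gave 16, all lower. Alternatives chosen after seeing the data were the sums of transcript estimates, given above, exon counts with the GC trend removed, and exon counts without siPFDN2 before serum replicate 2. Exon counts with the GC trend removed gave 1 for siPFDN5 before serum, 28 for siPFDN5 after serum, 1 for siControl after against before serum, 2 for siPFDN2, 23 for siPFDN5 and 25 for the average. Exon counts without that library gave 4 for siPFDN5 before serum, 12 for siPFDN2 after serum, 41 for siPFDN5 after serum, 1 for siControl, 39 for siPFDN5, 29 for the average and 32 for the difference of siPFDN5.

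With each library left out in turn, counts for siPFDN2 against siControl ran from 0 to 32 before serum and from 0 to 0 after it, and for siPFDN5 from 0 to 3 and from 0 to 41. After against before serum they ran from 0 to 0 in siControl, 0 to 34 in siPFDN2, 0 to 35 in siPFDN5 and 0 to 36 on average. Both differences ran from 0 to 30 (siPFDN2) and 0 to 34 (siPFDN5), and intronic counts from 5 to 16. A group left with 1 library is assumed to vary like the others. The highest counts for siPFDN2 before serum, for siPFDN2 after against before serum and for the difference of siPFDN2 came without siPFDN2 before serum replicate 1. That group was then replicate 2 alone, the library that stood apart in GC content. The replicate numbers were not taken to pair the libraries. Over 12113 genes, 4 of 15 pairs of groups had a correlation of same-numbered deviations over 0.1. The median was -0.046 and the highest 0.592, so a pairing shared by some groups is not excluded.

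The genes that changed sign were not called in those comparisons with the gene-body counts of all 12 libraries. With exon counts without siPFDN2 before serum replicate 2, NDUFAF2 was called with the opposite sign for siPFDN2 after serum (adjusted p = 0.0485, edgeR's quasi-likelihood test) and for siPFDN5 after serum (adjusted p = 0.00689). With exon counts, exon counts with the GC trend removed, exon counts without siPFDN2 before serum replicate 2 and transcript sums, in this order, NDUFAF2 was 0.32, 0.30, 0.32 and 0.33 for siPFDN2 after serum, and 0.37, 0.34, 0.37 and 0.40 for siPFDN5 after serum. It was -0.038, -0.051, -0.042 and -0.0048 for siControl after against before serum, and 0.35, 0.35, 0.37 and 0.39 for the difference of siPFDN5. NDUFAF6 was 0.093, 0.066, 0.098 and 0.11 for siPFDN2 after serum. With single libraries left out, NDUFAF2 ranged from -0.42 to 0.20 for siPFDN2 after serum and from -0.54 to 0.11 for siPFDN5 after serum, both highest without siControl after serum replicate 1. NDUFA4L2 was 0.0022 in siPFDN2 after against before serum with exon counts and the GC trend removed, and ranged from -0.49 to 0.037 for the difference of siPFDN5, highest without siControl after serum replicate 2. NDUFS7 ranged from -0.77 to 0.018 for the difference of siPFDN2, highest without siPFDN2 before serum replicate 2. The 2 libraries per group limit the precision.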
